A study of Danio rerio with 7 samples.

Results

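The genes described here are the members of module 8, the shortest of 8 gene modules deposited with a single-cell RNA sequencing experiment on the injured zebrafish heart. The deposited list of module 8 holds 163 Ensembl identifiers, 3.66% of the 4449 genes that the 8 modules divide among them. Of these, 4 solute carriers and eif2ak1 were set aside, which leaves 158 members. A symbol could be given to 126 of them (79.7%, exact 95% interval 72.6% to 85.7%), against 3520 of the 4286 genes of modules 1 to 7 (82.1%). The intervals given here are binomial and cover counting error only.

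The cells came from ventricles of adult zebrafish carrying the nppa:mCitrine reporter, taken 7 days after cryoinjury, a freezing injury of the heart wall. Single cells positive for mCitrine, which the labels call (border zone) cardiomyocytes, were sorted into wells, giving 3 plates of wildtype and 4 plates of hmga1a mutant cells. All 7 plates share the reporter and the injury, so the cells are those in which the nppa reporter was on, and the labels give neither the mutant allele nor the number of fish per plate. The module lists carry no value per plate or cell, so the level of no member is known here, depth per plate is not known, and no comparison of the genotypes was made.

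The endoplasmic reticulum is the membrane network in which secreted and membrane proteins are made, folded and given sugar chains and lipid anchors. Vesicles carry them from there to the Golgi, and many lipid enzymes sit in its membrane. In heart muscle a specialised part of the network, the sarcoplasmic reticulum, stores the calcium that drives each contraction.

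The deposited lists are only numbered, and a single annotation term is used here to describe module 8. Of the 18 terms that the authors' deposited table lists for it, 1 had a Benjamini-adjusted p under 0.05, the endoplasmic reticulum. That is 0.893% of the 112 cellular component terms that the deposited Bonferroni values imply were tested for the module. It is 0.184% of the 544 terms when biological processes and molecular functions are added. The adjustment was made within the component terms alone, so the adjusted p is not corrected for the 544 terms together. In the authors' deposited table the term holds 13 of the 104 genes of the list annotated by component, or 12.5%, against 750 of 20439 background genes, or 3.67%. That background is far larger than the 4449 module genes. The fold and p below were not set against genes detected in these cells. The fold enrichment was 3.41 with p = 0.000393 and adjusted p = 0.0440 in the authors' deposited table. The narrower term endoplasmic reticulum membrane held 9 of these 13 genes, with a fold of 3.99, p = 0.00181 and adjusted p = 0.101 in the authors' deposited table. The term therefore covers a minority: 91 of the 104 annotated genes lay outside it, and all 13 genes in it are among the 158 members.

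Of the 13 genes, 9 are proteins of the reticulum membrane, of folding or of transport to the Golgi, 3 are lipid enzymes and 1 is a surface receptor. Among the first are TMEM208 (ENSDARG00000068291), whose human protein helps to target membrane proteins to the reticulum, and TMEM33 (ENSDARG00000041332), a membrane protein of the network itself. NUS1 (ENSDARG00000027813) is a subunit of the enzyme that makes the lipid carrier of sugar chains, and PGAP2 (ENSDARG00000044596) remodels the lipid of GPI anchors. dnajc3a (ENSDARG00000041110) encodes a co-chaperone of the lumen that also restrains a stress kinase, and creb3l3b (ENSDARG00000090903) a transcription factor held in the membrane until it is cut loose.

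Transport to the Golgi is represented by TMED4 (ENSDARG00000024954), a cargo receptor of the p24 family, YIF1A (ENSDARG00000019636), a membrane protein of early transport vesicles, and TRAPPC6A (ENSDARG00000033171), a subunit of a complex that tethers vesicles. These 3 make up the term ER to Golgi vesicle-mediated transport, with a fold of 6.19, p = 0.0834 and adjusted p = 1 in the authors' deposited table. YIPF1, a Golgi protein of the same family as YIF1A, and tmem110l, named for a protein of the contacts between reticulum and cell surface, are further members that no listed term holds.

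Lipid enzymes follow. ILVBL (ENSDARG00000017126) is a lyase that shortens hydroxylated fatty acids, PNPLA7 (ENSDARG00000040002) a lysophospholipase, and FADS3 (ENSDARG00000019532) a desaturase. With IAH1, an esterase, and apoc2, a cofactor of lipoprotein lipase, they form the term lipid metabolic process, 5 genes with a fold of 3.02, p = 0.0827 and adjusted p = 1 in the authors' deposited table. KDR (ENSDARG00000017321), a receptor of the endothelial growth factor VEGF, is the gene of the 13 best known for a place on the cell surface. Its capitalised symbol does not tell which of the zebrafish copies this is, and the identifier was not looked up further.

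**Figure D1:**
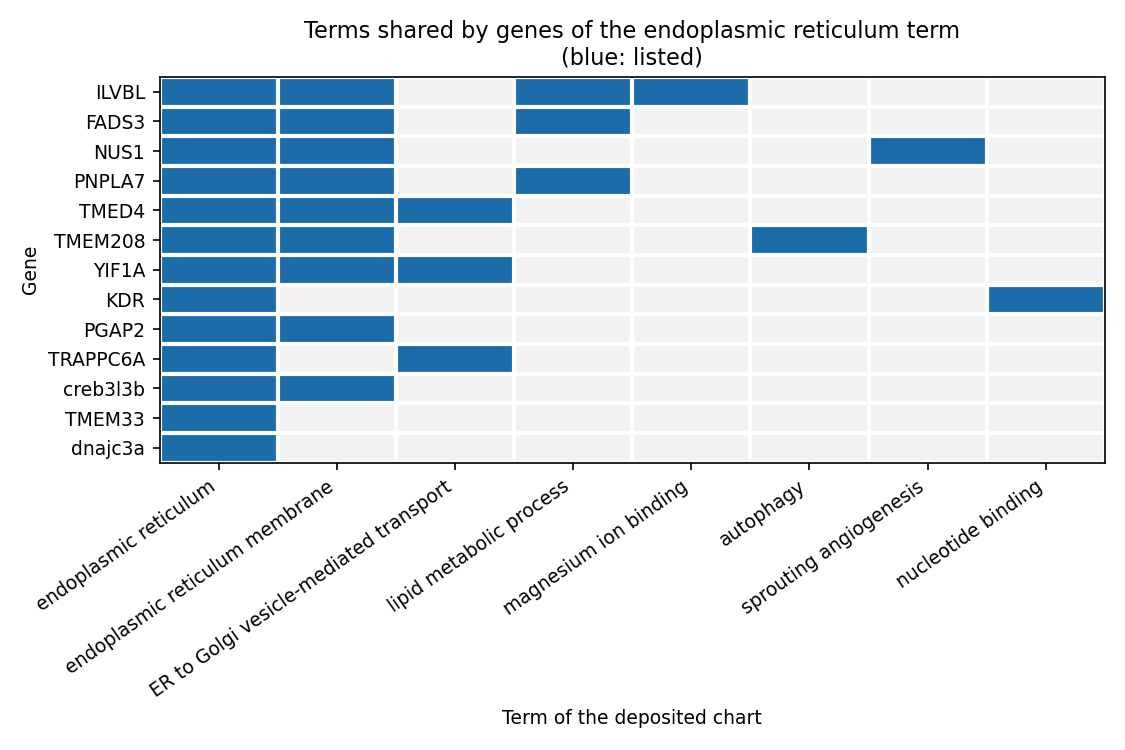
Genes of the endoplasmic reticulum term (rows) against the terms of the deposited chart that hold at least 1 of them (columns); a blue cell means that the chart lists the gene in the term. ILVBL stands in 4 terms, the 3 transport genes share a column, and TMEM33 and dnajc3a stand in 1 term each.

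No other module's chart lists the endoplasmic reticulum term or its membrane term. Since the charts list terms with p up to 0.1, an unlisted term sets a ceiling on its count. The formula that repeats the deposited p within 1% for 797 of 834 terms, and for all 18 of module 8, gives that ceiling. It allows from 4.48% (46 of 1026 annotated genes, module 1) to 5.86% (14 of 239, module 3). The share in module 8 was 12.5% (exact 95% interval 6.83% to 20.4%). Pooled over modules 1 to 7 the ceiling is 151 of 3007 genes, or 5.02%, and the share in module 8 is 2.49 times as high. The module is described here by this term, so these shares are a description and carry no test.

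**Figure D2:**
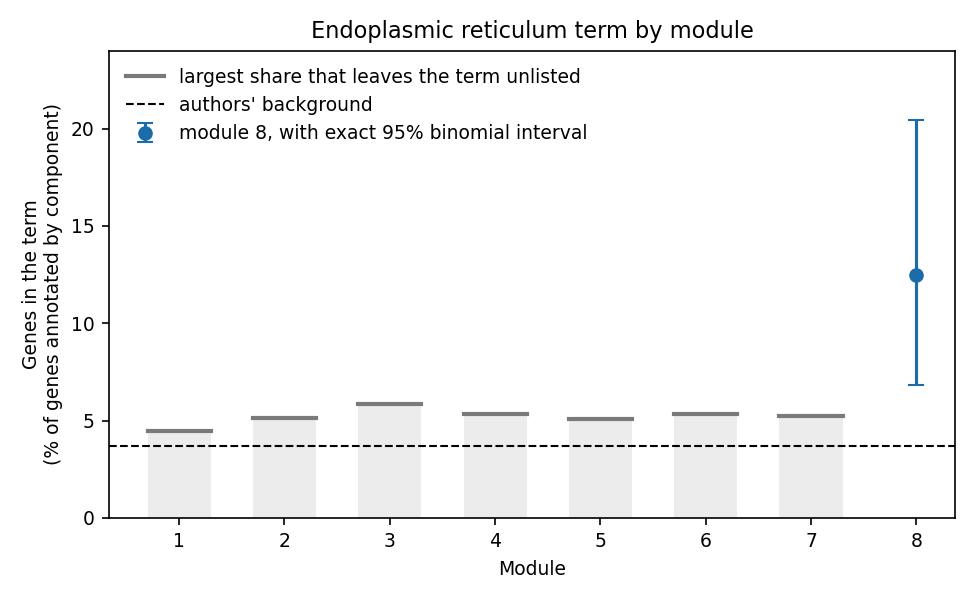
Share of genes annotated by cellular component that stand in the endoplasmic reticulum term (y axis, percent), by module (x axis). The point is module 8 at 12.5% with its exact 95% interval, the grey lines are the largest shares, 4.48% to 5.86%, at which the term would have stayed unlisted in modules 1 to 7, and the dashed line is the authors' background at 3.67%.

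Charts of other modules list related terms, and of those given here only the rough endoplasmic reticulum had an adjusted p under 0.05. In the authors' deposited table the KEGG pathway protein processing in endoplasmic reticulum is listed for module 1 (18 genes, fold 1.54, adjusted p = 0.706), module 2 (12 genes, fold 2.40, adjusted p = 0.204) and module 5 (9 genes, fold 1.97, adjusted p = 0.618). Module 7 has 3 genes in the rough endoplasmic reticulum (fold 22.3, adjusted p = 0.0343) in the authors' deposited table, and module 4 has 19 in the Golgi apparatus (fold 1.81, adjusted p = 0.764). The chart of module 8 lists 0 KEGG pathways.

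By role, assigned by hand from symbols, 33 of the 158 members (20.9%, interval 14.8% to 28.1%) were secretory or membrane proteins. Metabolic enzymes were 15 (9.49%, interval 5.41% to 15.2%). A further 69 (43.7%) were other named genes, 9 of them given no role here, and 41 (25.9%) had no symbol or a clone-style name only. The secretory and membrane class also takes in proteins of mitochondrial membranes and of endosome and lysosome sorting. Roles were assigned to these members only, so no share in the other modules or the genome stands beside these shares. Whether any class is more frequent here than elsewhere was not tested, and the shares are a description. Of the 18 listed terms 17 hold members, and the other holds only solute carriers. Of the 13 genes of the endoplasmic reticulum term, 10 were among the secretory and membrane proteins and 3 among the enzymes.

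**Figure D3:**
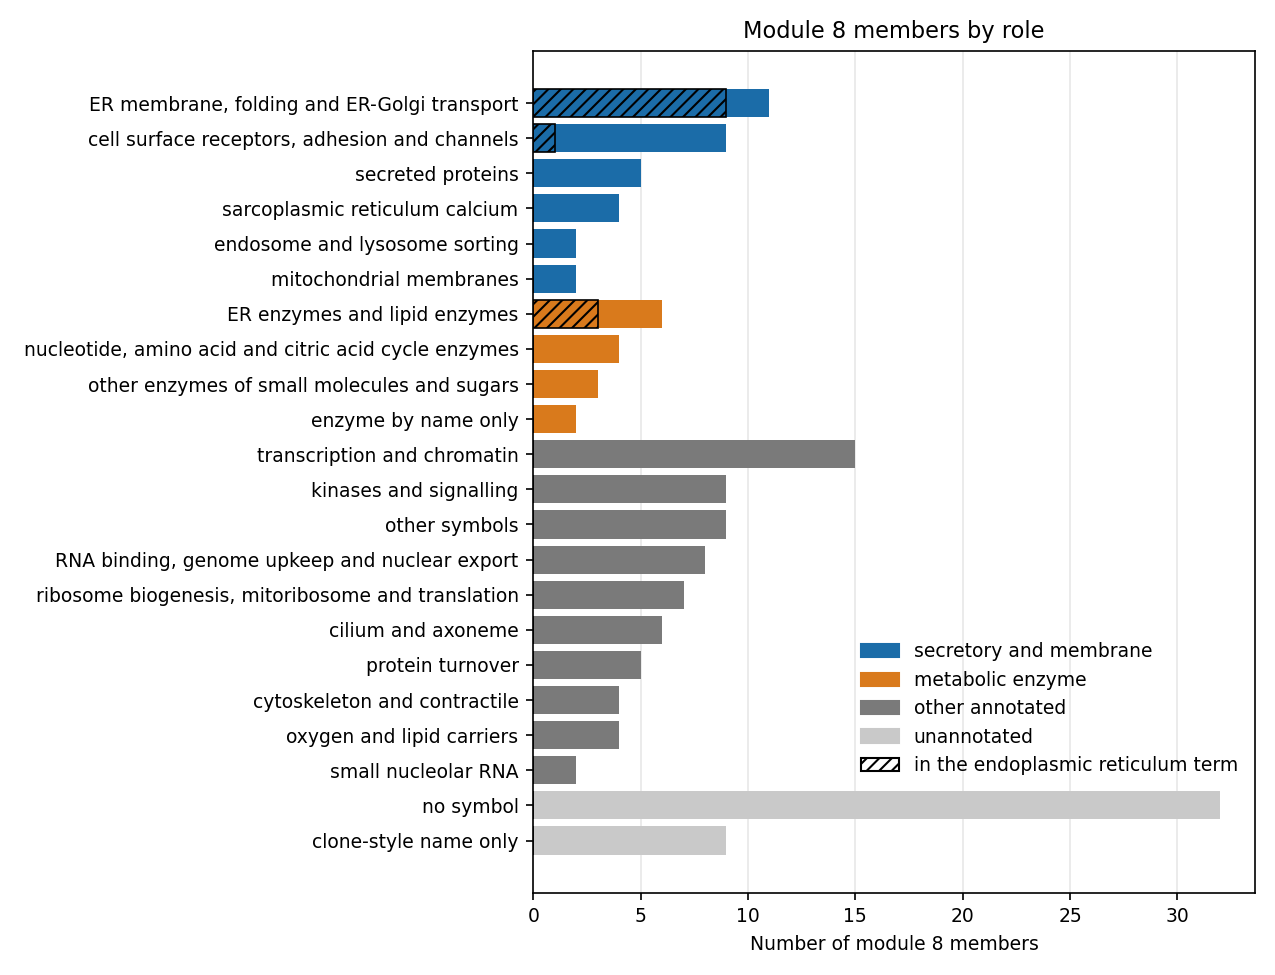
Number of module 8 members (x axis) in each role (y axis), coloured by class; hatching marks the genes that the deposited chart puts in the endoplasmic reticulum term. The hatched genes are 9 of the 11 in the top bar, 1 of the 9 surface proteins and 3 of the 6 ER and lipid enzymes, while 32 members have no symbol.

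Among the secretory and membrane proteins, 4 belong to the calcium store of muscle. CASQ1 is a calcium-binding protein of the store, hrc a histidine-rich calcium-binding protein of its lumen, and atp2a1l is named for the calcium pump that fills it. AKAP6 anchors signalling enzymes close to the store and the nuclear envelope. None of the 4 is in the endoplasmic reticulum term. Of 17 genes of this calcium machinery in any module, 5 lay in module 7, among them CASQ2, JPH2 and atp2a2a with a further identifier of CASQ1. The release channel genes RYR1 and RYR3 lay in module 2 and RYR2 in module 4. This set was drawn up with the members' names known, and module 7 holds 379 of the 4449 module genes.

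The cell surface proteins were 9. Receptors were KDR, BMPR2, a type II receptor of bone morphogenetic proteins, and TNFRSF21, a death receptor. EFNA1 is a ligand of Eph receptors that is held by a GPI anchor, SELE an adhesion molecule of activated endothelium, and mpzl2b an adhesion protein of epithelia. KCNV1 is a modifier subunit of potassium channels, and ITFG1 a membrane protein named for its integrin-like repeats. Of these proteins, TNFRSF21 and BMPR2 stand with NUS1 and PSME3 in the term sprouting angiogenesis, 4 genes with a fold of 7.40, p = 0.0166 and adjusted p = 1 in the authors' deposited table. The chart of module 1 lists the same term with 10 genes, a fold of 1.94 and adjusted p = 1 in the authors' deposited table.

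The secreted proteins were 5. NXPH1 is a ligand of neurexins, GDF10 a member of the TGF-beta family, c5 a complement component, hpxb a haem-binding plasma protein and apoc2 an apolipoprotein. VPS50 sorts membranes in endosomes and BLOC1S1 belongs to complexes of lysosome-related organelles. FUNDC1, a mitophagy receptor, and TIMM22, a channel for carrier proteins, sit in mitochondrial membranes. FUNDC1 stands with TMEM208 and tigara in the term autophagy (3 genes, fold 7.08, p = 0.0661 and adjusted p = 1 in the authors' deposited table).

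The 15 metabolic enzymes include 6 of lipids and the reticulum and 4 of nucleotides, amino acids and the citric acid cycle. Beside ILVBL, PNPLA7, FADS3 and IAH1, lipid and related enzymes include PTPMT1, a mitochondrial phosphatase on the path to cardiolipin, and DHRS13, a short-chain dehydrogenase. SUCLG2 is a subunit of a succinate-CoA ligase of the citric acid cycle, and ADSS2 commits IMP to AMP. NME4 is a mitochondrial nucleoside diphosphate kinase, and ASPA splits N-acetylaspartate. Further, tigara is named for a phosphatase that lowers glycolytic flux, and IDUA breaks down glycosaminoglycans in lysosomes. GFOD1 and nt5dc2 are called enzymes here by name only.

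SUCLG2, ILVBL and ADSS2 stand in the term magnesium ion binding (4 genes in all, fold 6.94, p = 0.0196 and adjusted p = 1 in the authors' deposited table). The chart of module 6 lists the same term with 6 genes (fold 3.33, adjusted p = 0.484 in the authors' deposited table), and that of module 7 with 5 (fold 3.10, adjusted p = 0.488 in the authors' deposited table). SUCLG2 and ADSS2 stand with TTLL1, a tubulin-modifying enzyme, in ligase activity (3 genes, fold 5.91, p = 0.0901 and adjusted p = 1 in the authors' deposited table). The broad term nucleotide binding holds 15 genes of the list, 14 of them members (fold 1.79, p = 0.0366 and adjusted p = 1 in the authors' deposited table). The same term had a fold of 2.32 with 61 genes and adjusted p = 3.13e-07 for module 6 in the authors' deposited table.

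**Figure D4:**
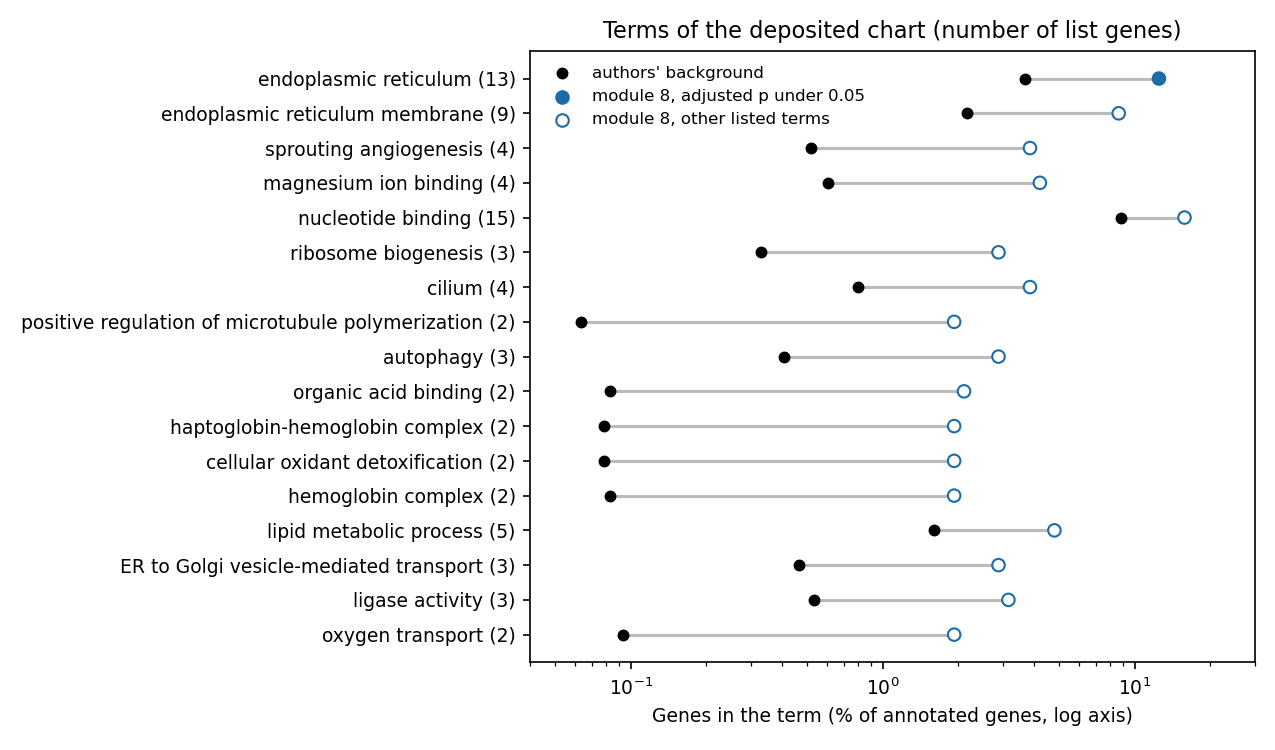
Share of annotated genes in each listed term that holds members (x axis, percent, log axis; the number of list genes in parentheses), for module 8 (blue rings, filled where the authors' adjusted p is under 0.05) and the authors' background (black). The endoplasmic reticulum is the filled point, at 12.5% against 3.67%, and 6 of the terms shown rest on 2 genes.

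Genes of 13 pathway lists were looked up in all modules, with a final a or b of the symbol ignored. Of the 64 distinct genes of the 5 secretory lists in any module, 7 lay in module 8 (10.9%, interval 4.51% to 21.2%), and module 8 holds 3.66% of all module genes. Of the 7, 6 stand in the endoplasmic reticulum term by which the module is described here, so this share is a description and carries no test. With exact symbols 5 of 57 genes lay there, dnajc3a and creb3l3b being lost, and the interval of that share (8.77%, interval 2.91% to 19.3%) holds 3.66%. Over all 13 lists 14 of 173 distinct genes lay in module 8 (8.09%, interval 4.49% to 13.2%), and 12 of 154 with exact symbols (7.79%, interval 4.09% to 13.2%). The lists were drawn up with results of these data known, and these shares are also a description. ER-Golgi transport accounted for 4 of the 7, from 19 genes in any module. The others of that list were spread widely, for example SEC23B and TMED1 in module 1, TRAPPC11 in module 2, kdelr2a in module 5 and YIPF4 in module 7. The list of entry into the reticulum (signal recognition, translocon and signal peptidase) had 8 genes in any module and 0 in module 8. Of these, SEC61A1 lay in module 2, SEC11A and SRPRA in module 4 and SEC61G in module 7. From the 19 genes of ER-associated degradation and the unfolded protein response, 10 lay in module 1, among them atf6, EIF2AK3 and DDIT3, and 1 in module 8, creb3l3b. Module 1 holds 1543 of the 4449 module genes. These counts in module 8 depend on the lists, since dnajc3a was put with the folding genes and TMEM208 and atf5b on no list. Of 11 folding genes, dnajc3a alone lay in module 8, and PGAP2 alone of 8 genes of N-glycosylation and GPI anchors.

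Of the metabolic lists, module 8 held 2 of 14 genes of purine and pyrimidine metabolism (ADSS2 and NME4, or 14.3%), 1 of 13 of the citric acid cycle and its entry (SUCLG2, or 7.69%, where 10 lay in module 7), 1 of 12 of amino acid metabolism (ASPA, or 8.33%) and 1 of 22 of fatty acid and glycerolipid synthesis (FADS3, or 4.55%). Each of these shares rests on 1 or 2 genes. Of the 4449 module genes, 163 are in module 8 and 379 in module 7. Sterol synthesis (3 genes in any module) and fatty acid oxidation (8 genes) had 0 there. In the list of ER shape, contacts and calcium, 1 of 27 was a member, CASQ1. The calcium-store members hrc, atp2a1l and AKAP6 were not matched by that list, so this count leaves them out.

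**Figure D5:**
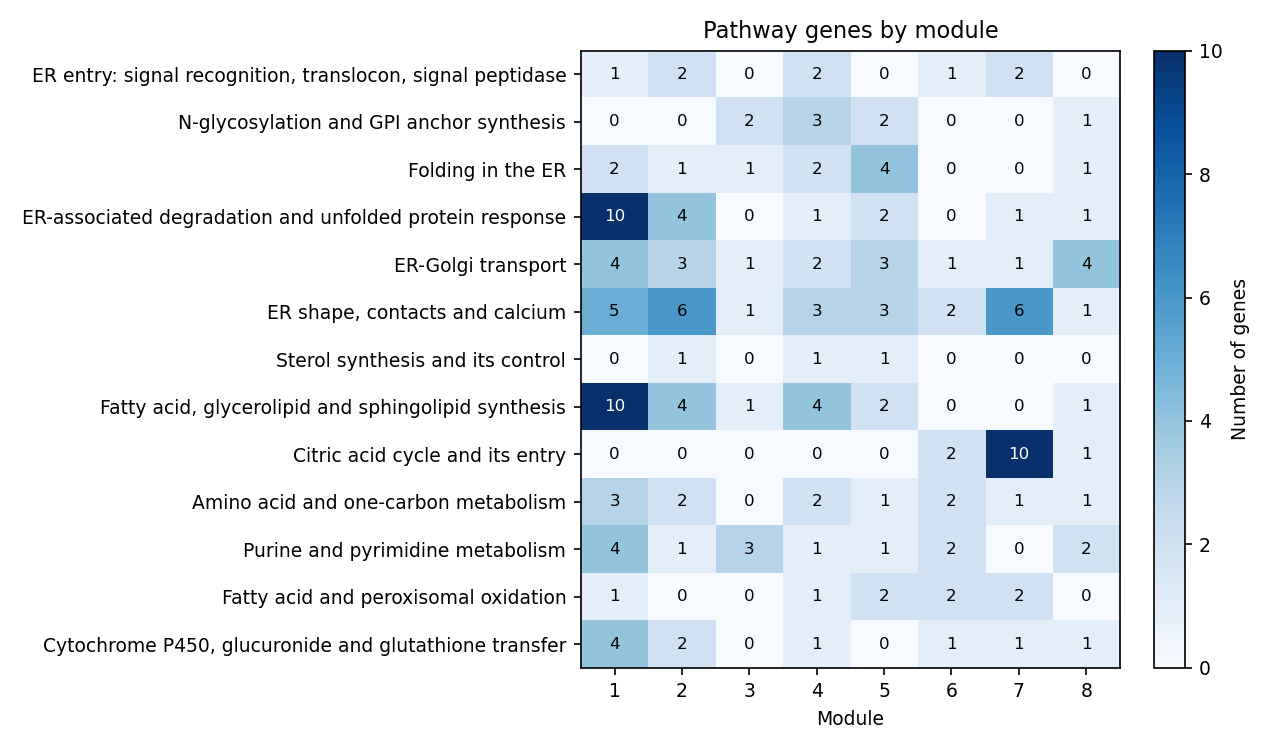
Number of genes of each pathway list (rows) in each of the 8 modules (columns), with the colour scale giving the same number. Module 8 holds 4 genes of ER-Golgi transport and at most 2 of any other list.

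The members with other roles were led in number by 15 genes of transcription and chromatin. ACTL6B and BCL7A belong to the BAF chromatin remodeller, RBBP5 to histone methyltransferase complexes, MED4 to Mediator, INTS13 to Integrator and ATXN7L3 to a histone deubiquitinase. TFDP1, BACH2, ZBTB16, NAB1, myt1la and atf5b are transcription factors or their partners, brf2 serves RNA polymerase III, and uxt is a prefoldin-like protein. Of the 15, 0 stand in a listed term, against 43 of all 158 members (27.2%). No listed term is about transcription or chromatin, so that 0 is not read as a result. tsr1, MPHOSPH10 and rrp36, factors of small ribosomal subunit assembly, form the term ribosome biogenesis (3 genes, fold 8.78, p = 0.0452 and adjusted p = 1 in the authors' deposited table), which module 7 shares with 4 genes and a fold of 4.26 in the authors' deposited table. MRPL32 was the member of the large mitochondrial ribosomal subunit, and 7 of the 8 such genes found lay in module 7. This family was looked up with the members' names known, and module 7 holds 379 of the 4449 module genes. HBS1L rescues stalled ribosomes, TRMT44 is named for tRNA methylation, and rps19bp1 binds a ribosomal protein.

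Cilium genes were 6. IFT46, of the intraflagellar transport complex, cfap36, cfap126 and TTLL1 form the term cilium (4 genes, fold 4.82, p = 0.0494 and adjusted p = 1 in the authors' deposited table). cfap65 and ENKUR, a calcium-channel adaptor of sperm tails, are further members outside the term. Of 5 cfap genes in any module, 3 lay in module 8, CFAP57 in module 4 and cfap74 in module 6. Module 8 holds 3.66% of all module genes. This family was looked up with the members' names known, so the count is a description and carries no test. ARL2, a small GTPase of tubulin folding, stands with ENSDARG00000079483, which has no symbol, in positive regulation of microtubule polymerization (2 genes, fold 30.2, p = 0.0637 and adjusted p = 1 in the authors' deposited table).

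Kinases and signalling genes were 9, among them NUAK1, PAK5, PRKCQ and pimr133, with akt1s1, an inhibitor of mTORC1, and noxa1, an activator of NADPH oxidases. The cytoskeletal members were CFL2, the cofilin of muscle, MYL1, an essential light chain of myosin, KATNA1, which severs microtubules, and GAS7. Protein turnover was represented by CRBN and ASB3, substrate receptors of ubiquitin ligases, commd8, NOSIP and PSME3, a proteasome activator. Grouped by hand under RNA, genome upkeep and nuclear export were 8 genes: HNRNPA1L2, hnrnph1, GPATCH3, PCID2, mdc1, NTHL1, tep1 and sfi1. The placing of sfi1 there was not checked. AAMP and fam131ba are among the 9 symbols without a role.

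Carriers of oxygen and lipids were 4. HBE1 and si:ch211-5k11.8 are globins, the second listed in RefSeq with the synonym hbaa1.2, and RBP2 and FABP7 bind retinoids and fatty acids. Both globins stand alone in 5 terms, oxygen transport, hemoglobin complex, haptoglobin-hemoglobin complex, organic acid binding and cellular oxidant detoxification. Their folds run from 20.6 to 25.4 and their p-values from 0.0753 to 0.0918, with adjusted p = 1, in the authors' deposited table. The 5 terms rest on the same 2 genes and so count as 1 observation.

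Globins, KDR and SELE are best known from blood and endothelium. The gate was on a cardiomyocyte reporter, and with no values per cell the part of other cells in the list was not tested. Of 23 defining markers of cardiomyocytes, endothelium, leukocytes, fibroblasts and erythrocytes looked for by these symbols alone, 13 lay in a module and 0 in module 8. Module 8 holds 3.66% of all module genes, so a count of 0 among 13 is not read as a result. That 0 does not cover the globins HBE1 and si:ch211-5k11.8 or KDR, which are members but not among the marker symbols. Whether any of them is the same gene as hbaa1, hbba1 or kdrl was not checked. The cardiomyocyte markers MYL7, TNNT2 and actc1a lay in module 7, nppa in module 5, nppb in module 2 and TTN in module 4. Of the other cell types' markers, cdh5 of endothelium, ptprc and LCP1 of leukocytes, COL1A1 of fibroblasts and gata1a of erythrocytes lay in module 1. The markers flt1 of endothelium and SPI1 of leukocytes lay in module 3. Of the 4449 module genes, 1543 are in module 1 and 357 in module 3.

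The unannotated members were 41, of which 32 had no symbol. The exact 95% interval of that share of the 158 members is 14.3% to 27.4%, against 766 of the 4286 genes of modules 1 to 7 (17.9%, interval 16.7% to 19.1%), and the intervals overlap. Clone-style names, si:ch211-5k11.8 included, made up 6.33% of the members and 6.39% of the other modules' genes. Of the 41, 2 stand in a listed term, ENSDARG00000079483 and zgc:136870, the latter in nucleotide binding. Taking all members, 43 (27.2%) stand in at least 1 listed term and 115 in none.

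Several members have a namesake elsewhere, either a second identifier with the same symbol or one that differs in its last letter. There were 9 such members, and for 0 of the 9 was the namesake in module 8 (exact 95% interval 0% to 33.6%). How often genes share a module with a namesake depends on the module's size, so no comparison with the larger modules was made. BMPR2, SELE, ZBTB16 and creb3l3b had theirs in module 1, EFNA1 in module 3, NUAK1 in module 6, CASQ1 in module 7 and fam131ba in module 2. Module 8 holds 3.66% of all module genes, so the count of 0 is not read as a result. Module 1 holds 1543 of the 4449 module genes. Whether namesakes are true duplicates was not checked.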

How the data were processed

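Single-cell RNA was sequenced from 3 wildtype and 4 hmga1a mutant plates, grouped by their labels. The submitters' processing notes name Seurat. No aligner, genome build or module method is named by the labels or file headers. The deposited files hold 8 lists of gene identifiers and 8 annotation charts. Per the file headers, each chart gives counts of genes per term, the percent of list genes, p-values with Bonferroni and Benjamini adjustment, and the fold enrichment, all made by the authors. Adjusted p-values were read against a threshold of 0.05.

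Symbols came from a name table of 29201 genes, and RefSeq names of assembly GRCz12tu gave synonyms and gene order (110 of 158 members matched by symbol or synonym). The number of terms tested was computed from each Bonferroni value and its raw p. The p formula, a hypergeometric tail with 1 gene removed from the term, was tested on small cases with enumerated answers. Intervals are exact (Clopper-Pearson, 95%). Python 3.11.15, pandas 2.3.3 and scipy 1.17.1 were used. Members, roles and lists were chosen with earlier results of these data known. Named genes are, with the exceptions below, all members in a listed term or on a pathway list, and other members by role where it was known. No test of genotype was made, and protein and promoter sequences were not analysed here. A few members are counted in the totals and not reported here by name.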

Additional observations from a re-analysis of the deposited data

How the results depend on the processing

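The share of secretory and membrane proteins was 20.9% as reported. It was 27.7% among the 94 members matched to RefSeq by symbol and 24.5% among the 110 matched by symbol or synonym. It was 17.1% without 6 doubtful roles and 22.4% in the first ascending run of identifiers, 2 settings chosen after seeing the data. Members without a symbol cannot match RefSeq and were given no role, which raises the share among matched members. Leaving out doubtful roles can only lower it. That each value lies within the interval of the reported share is therefore no check of the roles. None of these settings compares that share with the other modules. The fold of the endoplasmic reticulum term, 3.41, would be 3.58 if all 5 symbols set aside were among the annotated genes. Over all 163 identifiers, a setting also chosen after seeing the data, it would be 2.17. The 163 include genes without annotation and the background does not, so that lower fold follows from the unlike denominators. Exact matching of list symbols, also chosen after seeing the data, gave 8.77% in place of 10.9% of the secretory list genes and 7.79% in place of 8.09% of all list genes. Not run were the keyword rule for roles (no gene descriptions were used here), the annotated genes of all modules as background (the term is listed in 1 chart), and every alternative on membrane segments, signal sequences, retrieval motifs, promoter composition and promoter motifs (no sequences were used here). No paired analysis was possible because the deposited lists hold no value per plate, and for the same reason no plate was left out. Depth per plate is not known, so it limits every statement on levels.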

Other observations

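In the deposited order the identifiers of module 8 ascend in 6 runs, the first with 101 of the 163 (62.0%). In modules 1 to 7 the first run holds from 48.7% (module 3) to 98.9% (module 7) of the identifiers. Neither labels nor files say what the runs stand for. Of the 13 genes of the endoplasmic reticulum term, 9 lie among the 98 members of the first run, 3 among the 34 of the second, 0 among the 17 of the third and 1, PGAP2, among the 3 of the fourth. Unannotated members were 23 of 98 in the first run, 6 of 34 in the second and 10 of 17 in the third. The later runs had 0 of 3, 2 of 4 and 0 of 2, and the whole module 41 of 158 (25.9%). The difference between runs was seen after the fact and was not tested.

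Genome neighbours were looked up by RefSeq gene order. Among 26 pairs of adjacent protein-coding genes that hold a member and a second module gene, 1 pair lies wholly in module 8, DHRS13 and CRYBA1, the latter named for a crystallin of the lens. Module 8 holds 3.66% of all module genes, and no comparison with the larger modules was made. The co-chaperone gene dnajc3a lies next to UGGT2, a glycoprotein folding sensor of the endoplasmic reticulum, in module 5. YIF1A lies next to ATL3, which shapes the network, in module 2, and also next to FOSL1 in module 1. PGAP2 lies next to RHOG (module 3) and NCBP3 (module 6), and TMEM208 next to si:dkey-286h2.3 (module 2). The pairs with UGGT2 and ATL3 were picked for their link to the reticulum, so no clustering is read from them.

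The list also holds SNORD33 and SNORA73, small nucleolar RNAs, in libraries labelled as polyA RNA. Symbols that start with tmem were 3 of the 158 members (1.90%, exact 95% interval 0.393% to 5.45%) and 33 of 4286 genes elsewhere (0.770%, interval 0.531% to 1.08%), and the intervals overlap.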
